A study of Mus musculus with 9 samples.

Results

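The PGC-1 coactivators and the factors that work with them to build mitochondria were examined as a set of 10 genes, chosen by symbol. The set holds genes for 3 coactivators (Ppargc1a, Ppargc1b and Pprc1) and 3 nuclear transcription factors (Nrf1, Gabpa and Esrra). The other 4 encode proteins that serve the mitochondrial genome or its RNA (Tfam, Tfb1m, Tfb2m and Polrmt). All 10 were among the 36410 genes listed in the count table, and all 10 passed the filter on low counts that left 13508 genes for testing. The rule works by name and takes no measured value, but the genes were put together with earlier results of these data known.

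Poly(A) RNA was sequenced from 3 immortalized striatal cell lines derived from mouse embryos (strain given as C57/BL6), with 3 libraries per line. Control cells (STHdhQ7/Q7) came from wild-type embryos, HD-het cells (STHdhQ7/Q111) carry 1 huntingtin allele with an expanded polyglutamine tract, and HD-homo cells (STHdhQ111/Q111) carry that allele on both chromosomes. No treatment was applied to any line in the labels. Each genotype is 1 cell line, so the genotype and the line cannot be told apart, and nothing in the labels says that the libraries of a line came from separate cultures, so p values measure only the spread between these libraries, which may be technical. Huntington disease, which these lines model, is caused by the expanded tract and strikes the neurons of the striatum first.

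PGC-1 proteins do not bind DNA themselves. They dock on transcription factors such as nuclear respiratory factor 1 (Nrf1), GA-binding protein (Gabpa) and the estrogen-related receptor (Esrra), and raise the transcription of nuclear genes for respiration. Among those targets are Tfam, the methyltransferase-like factors Tfb1m and Tfb2m, and the RNA polymerase Polrmt, which enter the mitochondrion and serve its own genome. Loss of PGC-1α has long been discussed in the striatum in Huntington disease.

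Library totals ran from 29507665 to 41197931 counts, and levels are given as normalized CPM (counts per megaread after scaling between libraries). The members had between 61 and 9500 counts in a library, and a count of 3 corresponded to between 0.0710 and 0.101 CPM. Replicates of every line differed by more than counting error, with HD-homo libraries furthest apart (mean variance 22.6 to 39.2 times that of counting, against 2.20 to 11.8 in control and 6.18 to 21.1 in HD-het cells). Drd1, a dopamine receptor gene among the striatal markers, was at 0 counts in all 9 libraries. Of the 12 markers of striatal projection neurons, 6, 5 and 6 had 3 counts or fewer in every control, HD-het and HD-homo library. Their summed level lay at 90.3 to 100.4 CPM in control, 115 to 118 CPM in HD-het and 162 to 184 CPM in HD-homo cells, nearly all of it from Foxp1 (means 93.8, 114 and 168 CPM). Summed markers of mesenchymal cells lay at 2565 to 3469, 7860 to 9099 and 6188 to 6716 CPM, those of neurons (chiefly Map2 and Tubb3) at 92.9 to 114, 106 to 114 and 88.8 to 113 CPM, and those of astrocytes (chiefly Gja1) at 327 to 375, 213 to 232 and 401 to 461 CPM in the same order. The mesenchymal markers did not move together: Col1a1 had means of 2465, 7097 and 4234 CPM and carried the sum, whereas Col1a2 had 73.4, 3.15 and 1494 CPM and Dcn 4.06, 1.65 and 21.5 CPM. Microglial markers (Aif1 and C1qa at 0 throughout) summed to 12.2 to 15.96, 42.6 to 52.4 and 13.2 to 14.5 CPM, nearly all from Tmem119 (means 13.1, 45.9 and 11.5 CPM), while P2ry12 had 0.438, 0.138 and 0.0418 CPM. Oligodendrocyte markers (Mog at 0 throughout, chiefly Cnp) summed to 6.86 to 7.20, 13.1 to 16.4 and 8.19 to 10.3 CPM. Most of these sums thus follow 1 or 2 genes, and their part in the results was not tested. In bulk RNA, fewer cells of a type and less RNA per cell cannot be told apart.

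The 3 coactivators went separate ways in the HD lines. Ppargc1b fell 4.40-fold in HD-homo cells against control, Pprc1 fell 1.92-fold in HD-het cells, and Ppargc1a rose 1.63-fold in HD-het cells. Of the 10 members, 7 passed an adjusted p of 0.05 (edgeR quasi-likelihood, Benjamini-Hochberg over all genes) in HD-homo against control cells, where 58.6% of all tested genes did so. In HD-het against control cells 6 passed, against 65.1% of all genes, and in HD-homo against HD-het cells 6 passed, against 71.6%. Those shares of members are near the background. By direction, against control 1 member rose and 6 fell in HD-homo cells (all genes 29.6% higher and 28.9% lower). In HD-het cells 1 was higher and 5 were lower than in control cells (33.8% and 31.4%). Set against HD-het, 3 members were higher and 3 lower in HD-homo cells (36% and 35.6%). The median log2 fold change of the 10 members was -0.20 in HD-homo and -0.20 in HD-het cells against control, beside 0.01 and 0.03 over all tested genes. Both comparisons share the control libraries. Without regard to sign, the median change against control was 0.26 in HD-homo and 0.29 in HD-het cells for the members. Over all tested genes it was 0.32 and 0.40.

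**Figure D1:**
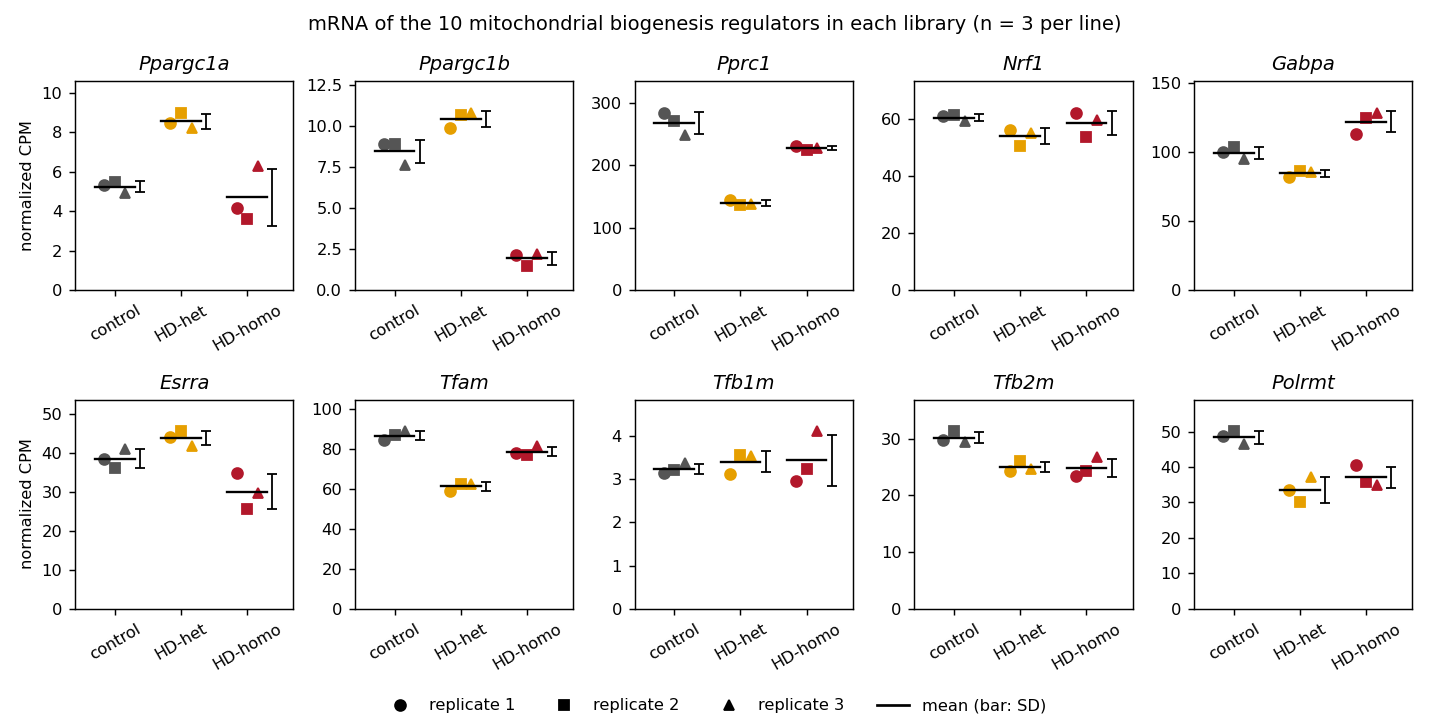
Normalized CPM (vertical axes, each from 0) of the 10 genes in the 9 libraries, by line; markers give the replicate, the horizontal line the mean of 3 libraries and the bar beside it the SD. Ppargc1b sits between 1.44 and 2.18 CPM in HD-homo cells and at 7.64 CPM or above elsewhere, while the 3 HD-homo libraries of Ppargc1a spread from 3.62 to 6.32 CPM around the control values.

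Ppargc1b encodes PGC-1β, a coactivator that drives baseline mitochondrial content and fat metabolism genes. Its level was 8.87, 8.86 and 7.64 CPM in control replicates 1 to 3, 9.84, 10.6 and 10.8 CPM in HD-het cells and 2.15, 1.44 and 2.18 CPM in HD-homo cells. All 3 HD-homo libraries lay far below the other 6, which did not overlap with them. The mean fell from 8.46 ± 0.706 (SD, n = 3) in control to 1.92 ± 0.414 CPM in HD-homo cells, a log2 fold change of -2.15 (SE 0.152, adjusted p = 3.57e-07 by edgeR). Of all tested genes, 9.92% changed by more, where that share was 43.3% to 74.9% for the other members that passed in this comparison. Against the HD-het line, the log2 fold change of Ppargc1b was -2.45 (SE 0.151, adjusted p = 7.40e-08), or 5.42-fold lower. HD-het libraries all exceeded the control libraries, but the difference of 0.30 on the log2 scale (95% interval 0.01 to 0.59) gave an adjusted p of 0.0651, and it passed when only the libraries of those 2 lines were fitted (0.0145). The HD-homo values rest on 61 to 73 counts per library.

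Ppargc1a encodes PGC-1α, the coactivator induced by cold, fasting and exercise through cAMP and AMP kinase. Control libraries held 5.32, 5.47 and 4.94 CPM, HD-het libraries 8.49, 8.99 and 8.21 CPM, and HD-homo libraries 4.17, 3.62 and 6.32 CPM. HD-het values were the highest in every case, whereas the HD-homo libraries overlapped with control, replicates 1 and 2 below and replicate 3 above it. The increase in HD-het cells was 0.71 (log2, SE 0.173, adjusted p = 0.00393), and HD-homo cells lay 0.87 below HD-het cells (log2 fold change -0.87, SE 0.174, adjusted p = 0.000851). Against control, HD-homo cells gave -0.16 (95% interval -0.56 to 0.23, adjusted p = 0.455), an interval that holds both a modest fall and a small rise. That value turned on single libraries: it was -0.44 with an adjusted p of 0.00995 without HD-homo replicate 3, and 0.00 without HD-homo replicate 2. The counts behind it were 136 to 212 per HD-homo library.

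Pprc1 encodes PRC, the PGC-1-related coactivator, which responds to serum and cell growth. It had 284, 272 and 248 CPM in control libraries, 144, 136 and 138 CPM in HD-het libraries and 230.2, 225 and 228 CPM in HD-homo libraries. The 3 lines formed separate bands in the order control, HD-homo, HD-het. The decrease from control was -0.94 on the log2 scale in HD-het cells (SE 0.0589, adjusted p = 1.92e-07) and -0.23 in HD-homo cells (SE 0.0582, adjusted p = 0.00501), and HD-homo cells exceeded HD-het cells by 0.71 (adjusted p = 8.81e-07). Pprc1 overlaps 177 exonic bases of Ldb1 on the opposite strand. Whether the counting used strand is not stated, so reads in that stretch cannot be assigned with certainty. Ldb1 itself differed from control by -0.44 in HD-homo cells and by -0.15 in HD-het cells (log2, adjusted p = 0.000591 and 0.114).

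Because the 3 transcripts differ in length, their levels were set side by side per kilobase of the longest coding transcript (6464 bases for Ppargc1a, 3656 for Ppargc1b and 5246 for Pprc1). Pprc1 made up 94.2% ± 0.156 (SD, n = 3) of the summed CPM per kilobase of the 3 coactivators in control libraries, 86.4% ± 0.771 in those of HD-het and 97.2% ± 0.660 in those of HD-homo cells. Ppargc1b contributed 4.27% in control, 9.27% in HD-het and 1.17% in HD-homo cells. Ppargc1a contributed 1.498%, 4.31% and 1.63% in that order. The per-kilobase ratio of Ppargc1a to Ppargc1b was 0.351 ± 0.0131 in control, 0.465 ± 0.0307 in HD-het and 1.39 ± 0.273 in HD-homo cells. By that ratio the β form was the more abundant of the pair in control and HD-het libraries and the α form in all 3 HD-homo libraries (ratios 1.099 to 1.64). In HD-homo cells their levels overlapped between libraries (lowest Ppargc1a 0.560, highest Ppargc1b 0.596 CPM per kilobase). The summed level of the 3 fell from 54.2 ± 3.63 CPM per kilobase in control to 44.7 ± 0.716 in HD-homo and 30.8 ± 0.637 in HD-het cells, with no overlap between lines. No test was made of these sums and ratios beyond the gene tests above.

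**Figure D2:**
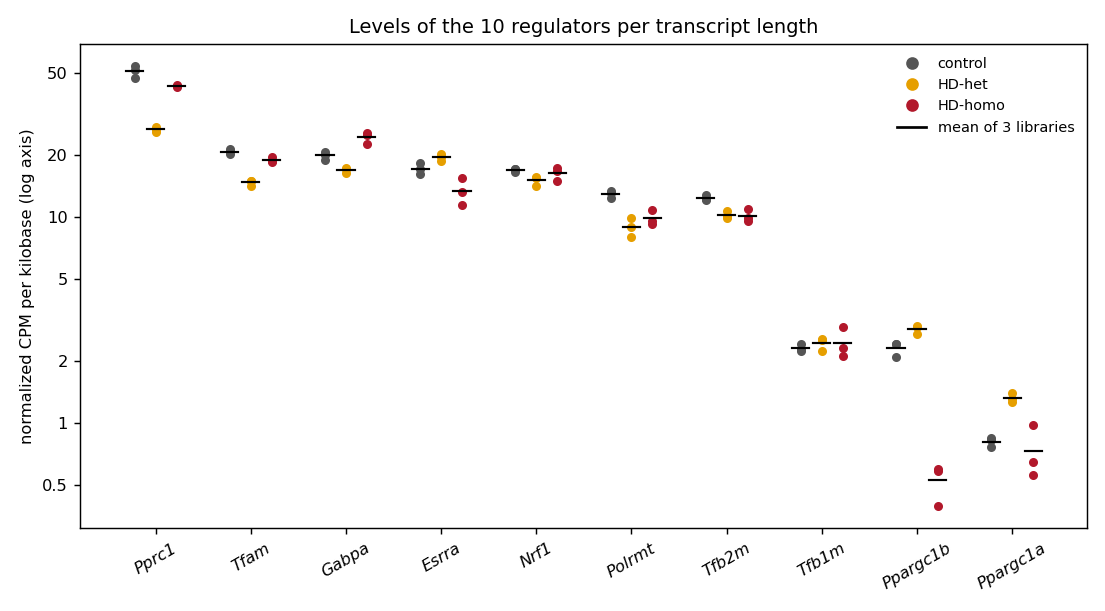
Normalized CPM per kilobase of the longest coding transcript (log axis) for the 10 genes, ordered by their mean in control cells; points are libraries and black bars the means of 3 libraries. Pprc1 leads in each line at 51.1 (control), 26.6 (HD-het) and 43.4 (HD-homo) CPM per kilobase, and Ppargc1a is lowest in control and HD-het cells at 0.811 and 1.32.

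In control cells the order per kilobase ran from Pprc1 (51.1) through Tfam (20.8), Gabpa (19.9), Esrra (17.2), Nrf1 (16.9), Polrmt (12.9) and Tfb2m (12.3) to Tfb1m (2.31), Ppargc1b (2.31) and Ppargc1a (0.811). The pairs Tfam and Gabpa, Esrra and Nrf1, Polrmt and Tfb2m, and Tfb1m and Ppargc1b overlapped between libraries, so neither member of each pair was set above the other. HD-het cells had the order Pprc1 (26.6), Esrra (19.5), Gabpa (16.9), Nrf1 (15.1), Tfam (14.7), Tfb2m (10.2), Polrmt (8.96), Ppargc1b (2.85), Tfb1m (2.43) and Ppargc1a (1.32), where Nrf1 and Tfam overlapped, as did Tfb2m and Polrmt. In HD-homo cells it was Pprc1 (43.4), Gabpa (24.4), Tfam (18.9), Nrf1 (16.3), Esrra (13.4), Tfb2m (10.1), Polrmt (9.88), Tfb1m (2.46), Ppargc1a (0.728) and Ppargc1b (0.526), with overlaps within the pairs Nrf1 and Esrra, Tfb2m and Polrmt, and Ppargc1a and Ppargc1b. The ranks of several genes, Nrf1 and Esrra above all, depend on the transcript length chosen: over all merged exons (10282 bases for Nrf1 and 4387 for Esrra) their control levels became 5.88 and 8.78, below Polrmt and Tfb2m, and in HD-het cells Tfb1m (0.945) came below Ppargc1a (1.299).

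Of the nuclear factors, Gabpa passed in all 3 comparisons, Esrra in both that involve HD-homo cells, and Nrf1 in none. Gabpa, the DNA-binding subunit of the ETS-family GA-binding protein, had 99.8, 103.5 and 94.6 CPM in control, 81.7, 85.9 and 85.3 CPM in HD-het and 113, 125 and 128 CPM in HD-homo libraries. The lines did not overlap, with control cells in the middle. Its log2 fold change was 0.30 in HD-homo (SE 0.0621, adjusted p = 0.00179) and -0.24 in HD-het cells (SE 0.0624, adjusted p = 0.00603) against control, and 0.53 for HD-homo over HD-het (SE 0.0623, adjusted p = 1.45e-05). It was the only member that passed against control in opposite directions in the HD lines, and the share of all genes doing so was not counted. Of all tested genes, 52.6% changed by more in HD-homo and 67.6% in HD-het cells against control. Gabpa overlaps 397 exonic bases of Atp5j, which encodes an ATP synthase subunit, on the opposite strand. Atp5j differed from control by 0.25 in HD-homo (adjusted p = 0.00546) and by 0.13 in HD-het cells (adjusted p = 0.0959), on the log2 scale.

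Esrra, the orphan receptor through which PGC-1 proteins reach many respiratory genes, had 38.3, 36.2 and 41.0 CPM in control, 44.0, 45.5 and 41.8 CPM in HD-het and 34.7, 25.7 and 29.7 CPM in HD-homo libraries. HD-homo libraries lay below both other lines, and HD-het libraries above control by a narrow margin. It fell by 0.36 on the log2 scale in HD-homo against control cells (SE 0.1003, adjusted p = 0.00952) and by 0.55 against HD-het cells (adjusted p = 0.000463). The HD-het difference from control was 0.19 (95% interval -0.03 to 0.40, adjusted p = 0.123). Esrra overlaps 73 exonic bases of Trmt112 on the opposite strand, and Trmt112 differed from control by -0.10 and -0.76 in HD-homo and HD-het cells (adjusted p = 0.332 and 1.72e-05).

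Nrf1, an activator of cytochrome c and other respiratory genes, passed in no comparison. Its values were 61.0, 61.3 and 59.2 CPM in control, 56.1, 50.7 and 55.2 CPM in HD-het and 62.1, 53.9 and 59.6 CPM in HD-homo libraries. HD-het libraries were all below control, while HD-homo libraries overlapped with both lines. The differences were -0.05 (95% interval -0.20 to 0.10, adjusted p = 0.560) in HD-homo and -0.16 (-0.31 to -0.02, adjusted p = 0.0516) in HD-het cells against control, and 0.12 (-0.03 to 0.26, adjusted p = 0.146) for HD-homo over HD-het. With an adjusted p so near the threshold, the HD-het value passed under several other settings, such as the fit of only those 2 lines (0.0199).

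Of the 4 genes for proteins that serve the mitochondrial genome or its RNA, 3 had lower mRNA than control in both HD lines. Tfam, which packages mitochondrial DNA and opens its promoters, had 84.4, 86.8 and 88.7 CPM in control, 58.8, 62.6 and 62.6 CPM in HD-het and 77.8, 76.7 and 81.4 CPM in HD-homo libraries. The lines did not overlap, with HD-het cells lowest. It fell by 0.50 in HD-het cells (log2, SE 0.0539, adjusted p = 1.12e-05), a decrease of 1.41-fold, and by 0.14 in HD-homo cells (SE 0.0535, adjusted p = 0.0429). The HD-homo call was lost under 10 of 17 other settings, with adjusted p up to 0.119. HD-homo cells exceeded HD-het cells by 0.36 (adjusted p = 0.000102).

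Polrmt, the RNA polymerase that transcribes the mitochondrial genome, had 48.9, 50.1 and 46.5 CPM in control, 33.6, 29.996 and 37.3 CPM in HD-het and 40.5, 35.9 and 34.9 CPM in HD-homo libraries. Both HD lines lay below every control library and overlapped with each other. Its log2 fold change was -0.53 (SE 0.0878, adjusted p = 0.000285) in HD-het and -0.39 (SE 0.0874, adjusted p = 0.00281) in HD-homo cells. Between the HD lines it was 0.14 (95% interval -0.05 to 0.33, adjusted p = 0.173).

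Tfb2m is the factor that melts mitochondrial promoters for the polymerase. It had 29.9, 31.3 and 29.5 CPM in control, 24.3, 26.1 and 24.7 CPM in HD-het and 23.5, 24.3 and 26.7 CPM in HD-homo libraries. The HD lines overlapped with each other and not with control. Its log2 fold change was -0.27 in HD-het (SE 0.0703, adjusted p = 0.00526) and -0.28 in HD-homo cells (SE 0.0702, adjusted p = 0.00504), and the difference between them was -0.01 (95% interval -0.16 to 0.15, adjusted p = 0.911). A share of 39.6% of its 50-base words also occurs in the locus Gm1818, which was listed at 0 counts in all libraries, so that reads shared by the loci may not be counted alike.

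Tfb1m, a methyltransferase of mitochondrial ribosomal RNA, passed in no comparison. It had 3.14, 3.21 and 3.38 CPM in control, 3.13, 3.57 and 3.53 CPM in HD-het and 2.97, 3.24 and 4.12 CPM in HD-homo libraries, so that the lines overlapped. The differences were 0.09 (95% interval -0.24 to 0.41), 0.07 (-0.25 to 0.39) and 0.01 (-0.30 to 0.33) in HD-homo and HD-het cells against control and between the HD lines, with adjusted p of 0.638, 0.685 and 0.938. Its values rest on 97 to 138 counts per library, and it overlaps 142 exonic bases of the more abundant Tiam2 on the opposite strand. Tiam2 differed from control by 0.55 in HD-homo (adjusted p = 0.00301) and by 0.08 in HD-het cells (adjusted p = 0.619), on the log2 scale.

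**Figure D3:**
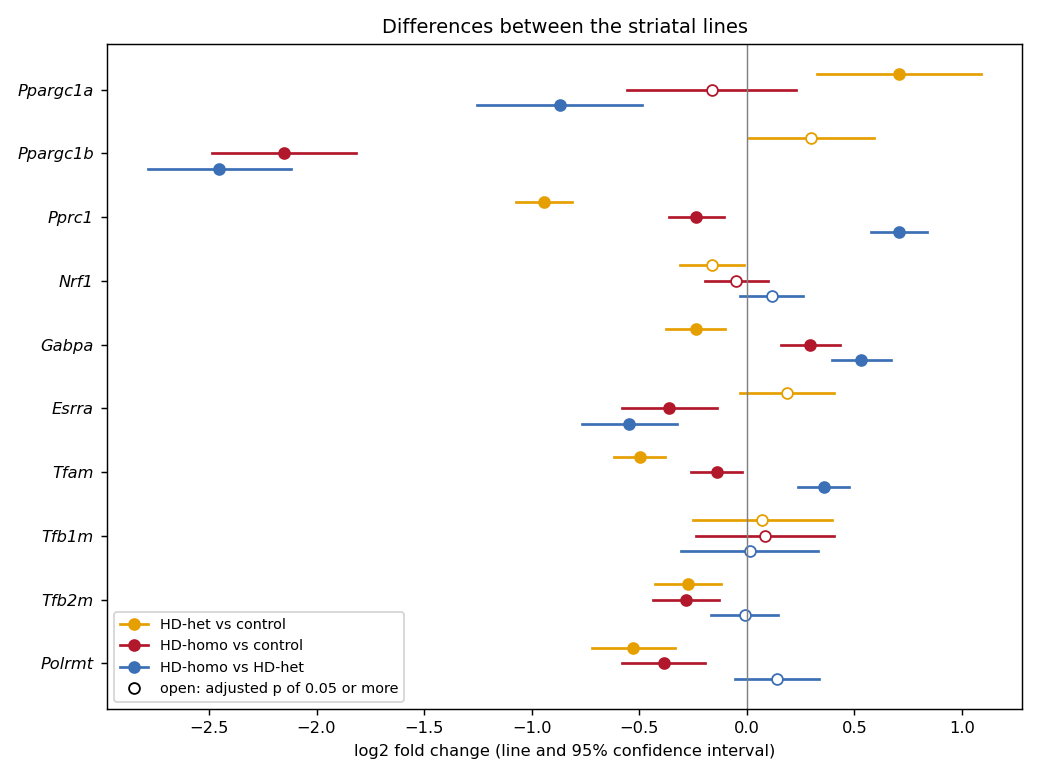
Log2 fold change (horizontal axis) with its 95% confidence interval for the 10 genes in 3 comparisons; filled points passed an adjusted p of 0.05 and open points did not. Ppargc1b stands apart at -2.15 and -2.45 in HD-homo cells, Gabpa lies on both sides of 0, and Nrf1 and Tfb1m are open throughout.

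Where the HD-het line stood between the others varied by member. HD-het means were above both lines for 3 members (Ppargc1a, Ppargc1b and Esrra), below both for 5 (Pprc1, Nrf1, Gabpa, Tfam and Polrmt) and between them for 2. Of these, HD-het cells differed from both lines by the test for Ppargc1a, which was higher, and for Pprc1, Gabpa and Tfam, which were lower. Such positions were not counted over all tested genes, of which 65.1% and 71.6% passed in the comparisons of HD-het with control and HD-homo cells. With 3 libraries against 3, an exact two-sided permutation test of a single gene cannot go below p = 0.1, which every pair of lines without overlap reached.

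Promoter sequence is shown for 4 of the 5 members whose promoter held a motif match. Tfam and Polrmt were lower in both HD lines, though the Tfam call in HD-homo cells was lost under 10 of 17 other settings. Ppargc1a was higher in HD-het cells, and Gabpa was higher in HD-homo and lower in HD-het cells. Like Tfam and Polrmt, Pprc1 and Tfb2m were lower in both HD lines, and neither had a recorded match of the motifs searched. Tfb1m, which held matches but passed in no comparison, is not shown. Each window runs from position -110 to 20 around the RefSeq start of the gene (its first base is 1, and there is no 0), on the strand of the gene, in GRCm38.p6. Capitals mark matches of the ETS site CCGGAAG (bound by Gabpa and its relatives), the NRF1 site GCGCNNGCGC or the cAMP response element core TGACG, or their reverse complements. 9 of the 10 members had a promoter in the RefSeq table, so the remaining member was not searched. That member was not identified here and has no recorded match. It could be Pprc1 or Tfb2m, so the lack of a match in these genes is not a firm negative result.
Ppargc1a (chr5:51567706-51567835, minus strand): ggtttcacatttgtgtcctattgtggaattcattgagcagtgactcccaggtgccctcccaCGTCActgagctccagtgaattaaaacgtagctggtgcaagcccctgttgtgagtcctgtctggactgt
Gabpa (chr16:84835014-84835143, plus strand): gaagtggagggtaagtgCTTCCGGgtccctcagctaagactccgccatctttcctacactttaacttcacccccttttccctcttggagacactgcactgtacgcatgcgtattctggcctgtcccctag
Tfam (chr10:71238025-71238154, minus strand): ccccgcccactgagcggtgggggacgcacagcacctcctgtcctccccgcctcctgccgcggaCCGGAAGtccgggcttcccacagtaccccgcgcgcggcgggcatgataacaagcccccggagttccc
Polrmt (chr10:79746562-79746691, minus strand): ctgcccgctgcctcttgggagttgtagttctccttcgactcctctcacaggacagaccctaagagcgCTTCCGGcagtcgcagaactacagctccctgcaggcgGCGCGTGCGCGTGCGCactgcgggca

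Over both strands of the 300-base promoters, from 250 bases before to 50 after the start, the ETS site occurred in 8.86% of 32851 promoters and in 3 members, at -93 in Gabpa, -47 in Tfam and -43 in Polrmt. The NRF1 site occurred in 6.23% of promoters and in 1 member, Polrmt, where matches from -6 to 4 and from 1 to 10 overlap each other. The TGACG core was found in 20.8% of promoters and in 2 members, Ppargc1a at -49 and Tfb1m at -132 and -87. The estrogen-related receptor site AAGGTCA was in 4.72% of promoters and in 0 of the 9 members. Such matches describe letters in a window, not binding.

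In GRCm38 with GENCODE M21, the coactivator genes lie at chr5:51454250-51567726 (Ppargc1a, minus strand), chr18:61298136-61400431 (Ppargc1b, minus strand) and chr19:46044886-46072915 (Pprc1, plus strand). Nrf1 spans chr6:30047988-30153458 on the plus strand, Gabpa chr16:84834925-84863779 on the plus strand and Esrra chr19:6910977-6921813 on the minus strand. The mitochondrial factors, all on the minus strand, are at chr10:71225464-71238280 (Tfam), chr17:3519256-3557781 (Tfb1m), chr1:179528055-179546267 (Tfb2m) and chr10:79736123-79746581 (Polrmt). Counts are given per gene, so that no isoform was resolved.

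Genes around the 10 members were counted in 6 lists. Those named as changing most in a list had the largest called change among genes with a mean of at least 1 CPM in the higher line. Partner transcription factors of the PGC-1 proteins had 19 tested genes, of which 6 rose and 5 fell in HD-homo and 4 rose and 5 fell in HD-het cells against control. These are 57.9% and 47.4% of the list, where 58.6% and 65.1% of all tested genes passed. Pparg, the adipocyte nuclear receptor first used to find PGC-1α, rose most in both lines, from 8.38 ± 0.989 CPM (SD, n = 3) in control to 49.0 ± 12.2 in HD-homo (log2 fold change 2.55, adjusted p = 2.86e-07) and 32.9 ± 4.60 in HD-het cells (1.97, adjusted p = 2.44e-06). Thrb, a thyroid hormone receptor, fell most in HD-homo cells, from 1.29 ± 0.371 to 0.105 ± 0.0432 CPM, near the floor of 3 counts (adjusted p = 8.43e-06). Myc, the growth factor-responsive activator, fell most in HD-het cells, from 263 ± 16.8 to 146 ± 8.53 CPM (-0.85, adjusted p = 1.02e-05).

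Upstream regulators of PGC-1 numbered 24 tested genes, with 4 higher and 10 lower in HD-homo and 6 higher and 11 lower in HD-het cells (58.3% and 70.8% called, against 58.6% and 65.1% of all genes). The median log2 fold change was -0.09 and -0.15, against 0.01 and 0.03 over all genes. Lpin1, a phosphatidate phosphatase and nuclear partner of PGC-1α, rose to 6.95 ± 2.02 from 3.45 ± 0.980 CPM in HD-homo cells (1.02, adjusted p = 0.00258), and Prkaa2, a catalytic subunit of AMP kinase, fell from 9.79 ± 1.55 to 3.36 ± 0.667 CPM (-1.53, adjusted p = 1.81e-05). In HD-het cells Sirt3, a mitochondrial deacetylase, rose from 2.79 ± 0.746 to 4.62 ± 0.304 CPM (0.73, adjusted p = 0.00297), and Mybbp1a, a repressor of PGC-1α, fell from 836 ± 17.6 to 440 ± 80.6 CPM (-0.93, adjusted p = 5.29e-05). Sirt1, the deacetylase that activates PGC-1α, was chosen after its values were seen, and differed by -0.23 in HD-homo (adjusted p = 0.0292) and -0.69 in HD-het cells (adjusted p = 2.33e-05).

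Mitochondrial DNA maintenance had 18 tested genes, of which 8 rose and 4 fell in HD-homo and 3 rose and 4 fell in HD-het cells (66.7% and 38.9% called, against 58.6% and 65.1% of all genes). Top1mt, the mitochondrial topoisomerase, rose most in HD-homo cells (11.9 ± 0.390 to 22.2 ± 1.38 CPM, 0.90, adjusted p = 4.75e-05) and Tk2, the mitochondrial thymidine kinase, in HD-het cells (11.7 ± 0.808 to 15.1 ± 2.07 CPM, 0.37, adjusted p = 0.0201). Dna2, a nuclease and helicase, fell most in both, from 38.9 ± 2.81 CPM to 24.7 ± 1.92 in HD-homo (-0.65, adjusted p = 0.000274) and 22.5 ± 3.31 in HD-het cells (-0.79, adjusted p = 5.71e-05). The helicase gene Twnk was also listed under its older name Peo1, which held 24.6% of their summed counts, and the lists used the current symbol only.

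Mitochondrial transcription and RNA processing had 26 tested genes, of which 4 rose and 4 fell in HD-homo and 4 rose and 12 fell in HD-het cells (30.8% and 61.5% called, against 58.6% and 65.1% of all genes). Lrpprc, which stabilises mitochondrial mRNAs, fell from 176 ± 0.679 to 81.2 ± 6.57 CPM in HD-het cells (-1.12, adjusted p = 1.48e-07), and Fastk, another RNA regulator, rose from 36.0 ± 1.95 to 55.8 ± 2.55 CPM (0.63, adjusted p = 1.09e-05). In HD-homo cells Hsd17b10, a subunit of the mitochondrial RNase P, rose from 28.9 ± 2.08 to 49.8 ± 2.01 CPM (0.79, adjusted p = 4.37e-06) and Fastkd2 fell from 32.6 ± 0.782 to 21.5 ± 1.22 CPM (-0.60, adjusted p = 1.30e-05). Mrm3 was listed also as Rnmtl1, with 44.0% of their summed counts. The 13 mRNAs encoded by mitochondrial DNA were not analysed here, since the count table held none of the symbols listed for them.

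Nuclear target genes had 29 tested genes, with 6 higher and 11 lower in HD-homo and 8 higher and 12 lower in HD-het cells (58.6% and 68.97% called, against 58.6% and 65.1% of all genes). The list medians were -0.02 and -0.02. Ucp2, an inner-membrane carrier, rose most in HD-homo cells, from 21.5 ± 0.317 to 81.8 ± 5.94 CPM (1.92, adjusted p = 3.42e-09), and Pdk4, a pyruvate dehydrogenase kinase, fell most, from 5.61 ± 0.982 to 2.39 ± 0.463 CPM (-1.22, adjusted p = 0.00136). In HD-het cells Cat, the peroxisomal catalase, rose from 25.4 ± 0.254 to 60.2 ± 1.35 CPM (1.24, adjusted p = 6.57e-08), and Txn2, mitochondrial thioredoxin, fell from 128 ± 4.53 to 67.0 ± 7.53 CPM (-0.93, adjusted p = 1.20e-06). Cs, citrate synthase, was chosen after its values were seen, and fell in both lines, by 0.37 in HD-homo (adjusted p = 0.000460) and 0.71 in HD-het cells (adjusted p = 3.01e-06). Mitochondrial mass markers had 11 tested genes, of which 4 fell and 7 did not pass in HD-homo cells, and 1 rose and 8 fell in HD-het cells (36.4% and 81.8% called, against 58.6% and 65.1% of all genes). Their medians were -0.11 and -0.29. Hspd1, a matrix chaperonin, had 1114 ± 18.1 CPM in control and 914 ± 50.9 in HD-homo cells (-0.29, adjusted p = 0.0335), Hspe1, its partner, fell from 216 ± 18.5 to 124 ± 19.6 CPM in HD-het cells (-0.80, adjusted p = 5.66e-05), and Hspa9, a matrix chaperone, rose from 962 ± 16.1 to 1113 ± 22.3 CPM in HD-het cells (0.21, adjusted p = 0.00718).

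**Figure D4:**
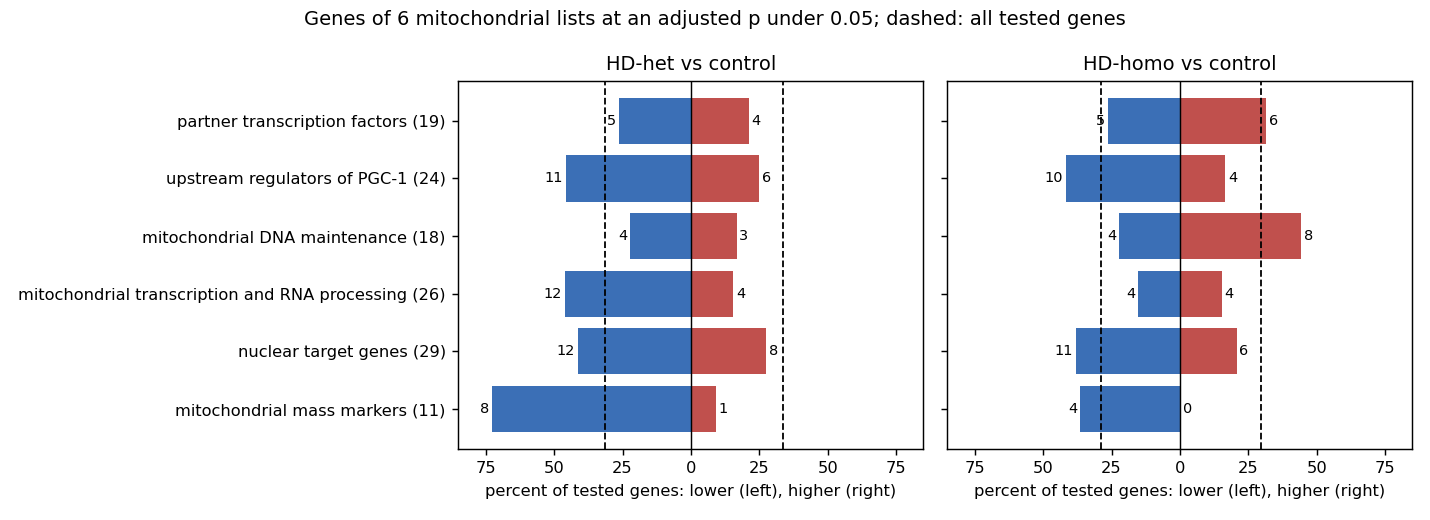
Percent of tested genes per list that passed an adjusted p of 0.05, lower in the HD line to the left and higher to the right (horizontal axis), with the number of genes at each bar and the number tested in brackets; dashed lines give the percent over all tested genes. Of 11 mass markers 8 are lower and 1 is higher in HD-het cells.

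Between HD-homo and HD-het cells, where 71.6% of all genes passed, the same lists held 7 higher and 3 lower of 19 partner factors in HD-homo cells (52.6% called), 10 and 9 of 24 upstream regulators (79.2%), 7 and 2 of 18 maintenance genes (50%), 11 and 4 of 26 RNA processing genes (57.7%), 13 and 7 of 29 target genes (68.97%), and 6 and 1 of 11 mass markers (63.6%). Beside the coactivators, the genes whose centred log2 CPM came nearest over the 9 libraries were named by their root mean square difference. For Ppargc1a these were Rsu1 (0.0973), Mmp28 (0.114) and Sdc3 (0.123), for Ppargc1b Tnc (0.143), Gab2 (0.158) and Zfp2 (0.182), and for Pprc1 Racgap1 (0.0632), Bag4 (0.0660) and Timeless (0.0745). Tnc, for example, had 1402 CPM in control, 1489.6 in HD-het and 316 in HD-homo cells, and Rsu1 had 94.5, 152 and 88.3 CPM. The 9 libraries come from 3 lines, so a likeness over them is mostly one over 3 points.

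**Figure D5:**
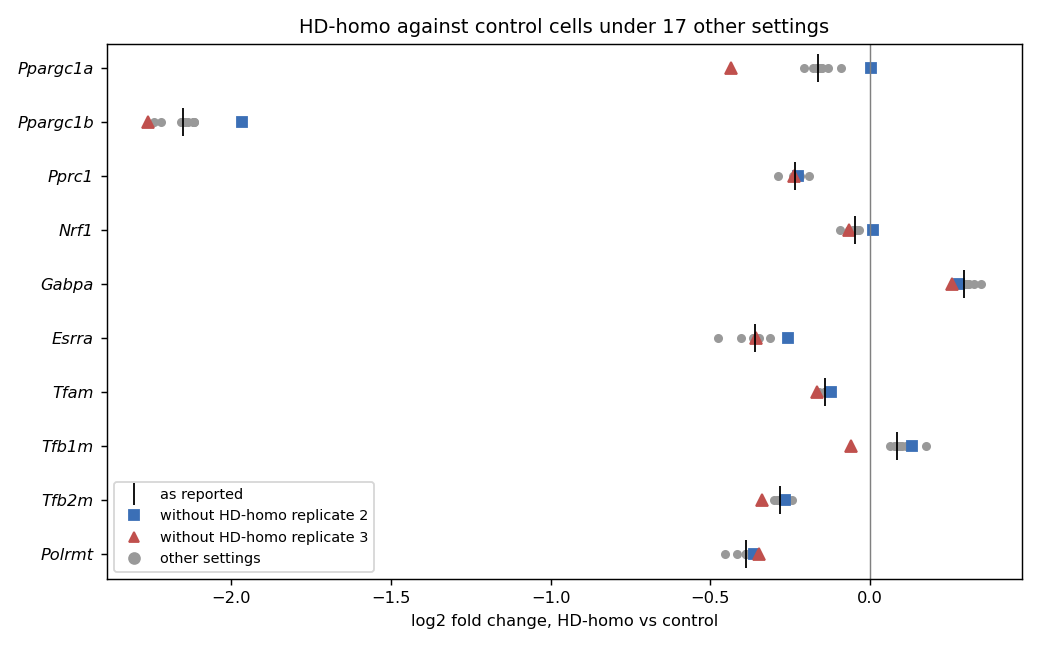
Log2 fold change of the 10 genes in HD-homo against control cells (horizontal axis) as reported (black bar) and under 17 other settings (points). Ppargc1a runs from -0.44 without HD-homo replicate 3 to 0.00 without replicate 2, whereas Ppargc1b stays at -1.97 or below.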

How the data were processed

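The authors deposited raw gene counts of 9 poly(A), strand-specific libraries, as whole numbers by gene symbol. The submitters' processing notes name cutadapt, Bowtie 1.1.2, RSEM 1.3.0, DESeq2, GRCm38.p5 and mm10, without saying which made the counts; if RSEM did, they are rounded estimates. The annotation and the use of strand are not given in the sources used here. The analysis used edgeR 4.0.16 under R 4.3.3: filterByExpr (minimum count 10), TMM, 1 mean per line over all 9 libraries, quasi-likelihood tests, and Benjamini-Hochberg adjustment over 13508 genes (threshold 0.05). DESeq2 1.42.0, other scalings, filters and fits, and leaving out each library were alternatives. The paper names no test for these counts. The code was tested on simulated data.

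The members and gene lists were chosen with earlier results of these data known. All 10 members are named, the called gene with the largest increase and decrease per list and HD line (mean of 1 CPM or more in its higher line), and the 3 nearest genes per coactivator (prior count 2). Sirt1 and Cs were added after their values were seen. Transcripts came from GENCODE M21, promoters from RefSeq. Replicate numbers were not taken to pair the samples, though pairing was not excluded.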

Additional observations from a re-analysis of the deposited data

Results flagged for a closer look

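Gabpa differed between the HD lines in opposite directions from control: HD-homo exceeded HD-het cells by 0.53 on the log2 scale (adjusted p = 1.45e-05 by edgeR), with all 3 HD-homo libraries above and all 3 HD-het libraries below every control library. Between the HD lines, 45.1% of all tested genes changed by more than Gabpa, and genes with opposite directions were not counted over all genes. Whether the overlap of Gabpa with Atp5j bears on this was not tested.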

How the results depend on the processing

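Among the 17 alternatives, a prior count of 2 in the fit left adjusted p values as they were, so it could not lose a call. Of 19 member differences that passed the threshold, 18 stayed past it with the same sign under each of the 17. The exception was Tfam in HD-homo against control cells, with log2 fold changes of -0.12 to -0.16 where it missed. Of 510 recomputed values, 10 missed the threshold that way, 12 passed it newly and 9 changed sign, all of the last among differences that had not passed. Leaving out single libraries moved the log2 fold change in HD-homo against control cells from -0.44 to 0.0020 for Ppargc1a, from -0.093 to 0.0094 for Nrf1 and from -0.060 to 0.18 for Tfb1m, with the sign changed without HD-homo replicate 2 for Ppargc1a and Nrf1 and without HD-homo replicate 3 for Tfb1m. For HD-homo against HD-het cells the range was -0.13 to 0.11 for Tfb1m, which changed sign without HD-het replicate 1 and without HD-homo replicate 3, and -0.067 to 0.029 for Tfb2m, which changed sign without HD-het replicate 2, HD-homo replicate 1 or HD-homo replicate 2, and was 0.019 with library totals only. The count of members higher in HD-het than in control cells was 3 when only those 2 lines were fitted. In that fit 9 members passed in either direction, where 71.0% of all genes did so. The cause was not tested.

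Leaving out each library in turn gave 6 to 8 members past the threshold in HD-homo and 6 to 8 in HD-het cells against control, and 6 to 7 between them. Members higher in HD-het than in control cells then numbered 1 to 2, and lower 5 to 6. Of the 127 list genes tested, 66, 78 and 80 were called with all libraries, and 48 to 67, 66 to 83 and 73 to 82 with one left out, when 49.9% to 59.0%, 57.6% to 67.4% and 65.8% to 70.6% of all genes were called.

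Same-numbered libraries correlated in their deviations by -0.0053 to 0.145, not over 0.1 in every pair, so the numbers were not taken to pair the samples. With the replicate number as a block, 7, 7 and 6 members passed in HD-homo against control, HD-het against control and HD-homo against HD-het cells, and the added call was Nrf1 in HD-het cells (-0.17, adjusted p = 0.0285). List genes called were then 68, 84 and 87, beside 62.0%, 67.8% and 73.6% of all genes.

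Counts were lowest for Ppargc1b in HD-homo cells (61 to 73 per library) and also low for Tfb1m (97 to 138). Depth as a limit was not tested.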
